A study of Mus musculus with 6 samples.

Results

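Matrix metalloproteinases are zinc-dependent enzymes that cut collagens, elastin and other proteins of the extracellular matrix, and tissue inhibitors of metalloproteinases (the TIMPs) are small secreted proteins that bind and block their active site. The genes examined here were chosen by name from the deposited tables: the metalloproteinases Mmp2, Mmp8, Mmp9, Mmp12, Mmp13, Mmp14 and Mmp19 and the inhibitors Timp1, Timp2 and Timp3. All 10 of 10 were found among the 16266 genes of the tables, and all 10 passed the low-count filter that left 12219 genes to test. The cells were mouse bone marrow-derived macrophages, that is, macrophages grown out of marrow in culture. There were 3 libraries from wild-type (WT) cells and 3 from Capns1 knockout (KO) cells, and all 6 were exposed to lipopolysaccharide (LPS, a bacterial cell wall component) for 24 h. The series title describes the deletion as myeloid-specific, and neither the age of the animals nor the driver of the deletion is given in the labels. Since every library had LPS, the values compare KO with WT under LPS, and the response to LPS itself is not analysed here. Whether each replicate came from its own animal or culture is not stated, so p-values measure the spread between these libraries, which may be technical.

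Most metalloproteinases are secreted as inactive proenzymes whose propeptide must be removed before they cut. Macrophages are a main source of the macrophage elastase Mmp12 and of the gelatinase Mmp9, and in the infarcted heart such enzymes and their inhibitors take part in clearing and rebuilding matrix. Timp2 has a double role, since at the cell surface it can bridge the membrane-bound Mmp14 and the proenzyme of Mmp2, which Mmp14 then activates. Transcript levels, given here, do not measure proenzyme activation or inhibitor binding.

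Capns1, the small subunit of calpains, checks the labels, because the numeral after Capns in the genotype label changes from one KO sample to the next. It stood at 492, 478 and 521 CPM (the count scaled to the library total) in WT replicates 1 to 3 and at 9.51, 9.94 and 9.13 CPM in KO replicates 1 to 3, so each KO library carried the loss. Library totals ranged from 32631163 to 40913819 counts, so a count of 0 allows a level of up to 0.0733 to 0.0919 CPM (3 counts, counting error only). Of the 9 macrophage markers, all were detected, with summed levels of 35421 to 42761 CPM in WT and 33752 to 38854 CPM in KO. Most of each sum was Lyz2 (mean 28413 CPM in WT, 24897 CPM in KO). In the test described below, Cd14 fell (log2 fold change, KO minus WT, -0.34, edgeR adjusted p = 0.0304) and the other 8 were not called. WT replicate 3 (-23.2) and KO replicate 2 (25.5) stood apart on the next-to-leading principal component (15.9% of the variance), where their fellow replicates lay at 8.21 and 12.4 in WT and at -12.6 and -10.4 in KO. Results are therefore also given without both, although the remaining WT and KO libraries then differ on that component as well. Without both, 3 of the 9 macrophage markers fell (Fcgr1, Lyz2 and Cd14) and 0 rose, where 12.3% of all tested genes fell.

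Of the 10 genes, 2 rose in KO, 1 fell, and 7 did not pass the test. The gelatinase Mmp2 and the inhibitor Timp1 rose about 2.59-fold and 2.38-fold, and the elastase Mmp12 fell, with a KO level 0.576 times that of WT. Called genes are those with an adjusted p under 0.05 in edgeR's quasi-likelihood test with Benjamini-Hochberg adjustment over all 12219 tested genes. In that test 14.6% of all genes were called, 8.44% higher and 6.21% lower in KO, against 3 of 10 here. The 10 genes and all lists were chosen with earlier results of these data known. Shares called in them are therefore descriptions beside the share of all genes, not tests. The median log2 fold change (KO minus WT) of the 10 genes was 0.06, and that of all tested genes was -0.01. The ranges of KO and WT were separate for 5 of the 10 genes (Mmp2, Timp1 and Timp3 above, Mmp12 and Mmp13 below), whereas 33.6% of all tested genes had groups that did not overlap. Without WT replicate 3 and KO replicate 2, edgeR called 26.0% of 12275 tested genes, 13.7% higher and 12.3% lower, and counts from that fit given below stand against these shares.

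**Figure D1:**
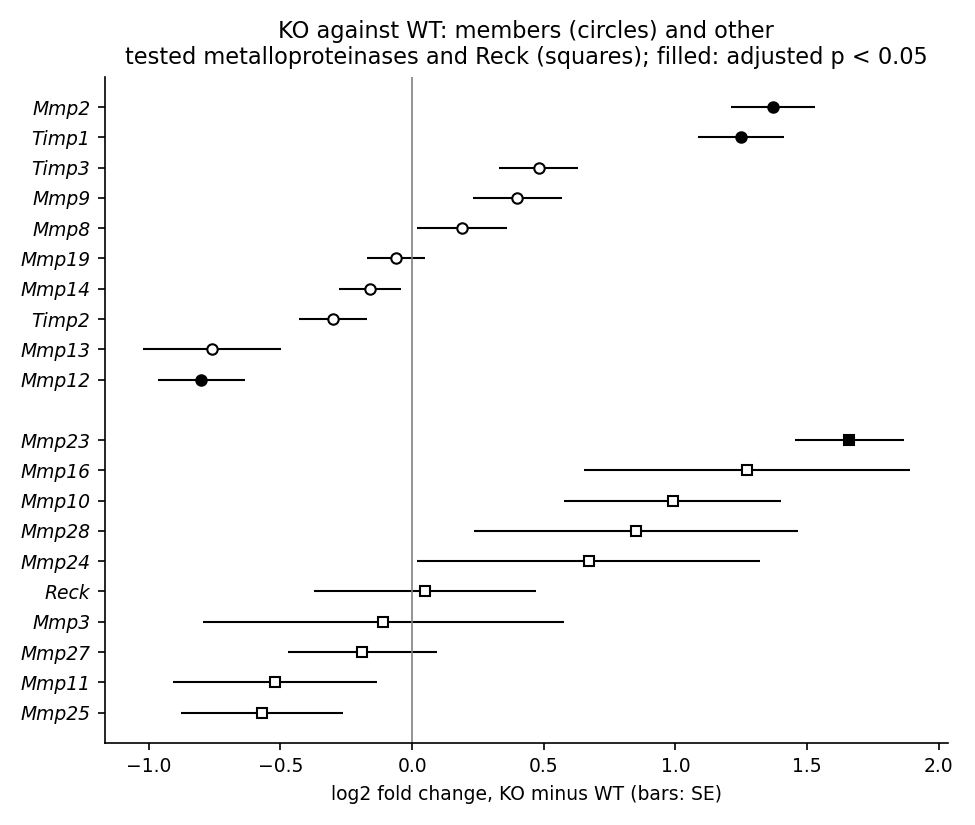
Log2 fold change (KO minus WT, horizontal axis) with its standard error (bars) in edgeR for the 10 genes (circles) and for the other tested metalloproteinases and Reck (squares), with filled symbols for adjusted p under 0.05. Among the circles, Mmp2 (1.37), Timp1 (1.25) and Mmp12 (-0.80) are filled, and among the squares Mmp23 (1.66).

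To compare genes with one another, levels are given in FPKM, the authors' count scaled to gene length and library total. In WT, the membrane-anchored metalloproteinase Mmp14 was the most abundant of the 10 at 253 ± 35.7 FPKM (SD, n = 3), above 98.3% of all genes in the table. Timp2 (68.4 ± 8.90 FPKM) and Timp1 (53.7 ± 12.7 FPKM) followed, and their ranges over the WT libraries overlapped. Mmp19, Mmp9 and Mmp8 formed a middle group at 35.1, 28.0 and 22.2 FPKM, in which neighbours in the order overlapped. Mmp12 stood at 6.14 FPKM, Timp3 at 2.31 FPKM, and Mmp2 and Mmp13, whose ranges overlapped, at 1.37 and 1.23 FPKM. In KO the order differed in the places of Timp1, Mmp9 and Mmp2. Timp1 stood second at 129 ± 15.9 FPKM, with no overlap with Timp2 at 56.4 ± 8.69 FPKM. Mmp9 stood above Mmp19 by mean level, with overlapping ranges. Mmp2 reached 3.60 ± 0.0388 FPKM, a level within the ranges of Mmp12 (3.60 ± 0.630 FPKM) and Timp3 (3.27 ± 0.662 FPKM).

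**Figure D2:**
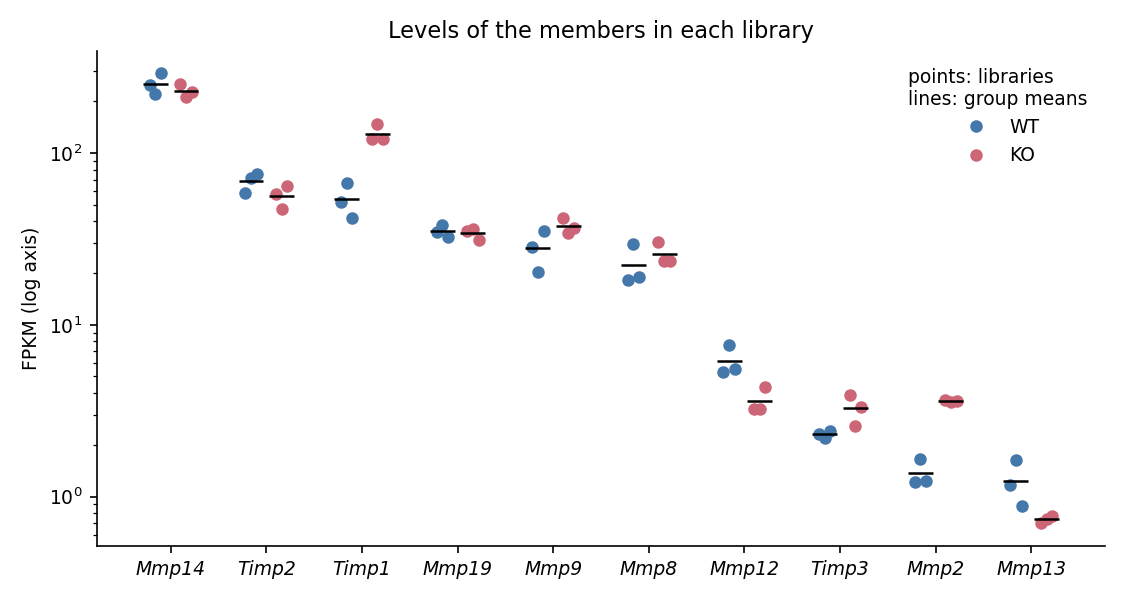
FPKM on a log axis for the 10 genes in each library (blue points WT, red points KO, lines for group means), ordered by the WT mean. Mmp14 is highest in both groups, and the KO points lie wholly above the WT points for Timp1, Timp3 and Mmp2 and wholly below them for Mmp12 and Mmp13.

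Among the gelatinases, which cut denatured collagen and basement membrane collagen, Mmp2 rose and Mmp9 did not pass the test. Mmp2 (chromosome 8, 92827290 to 92853421, GRCm38) stood at 3.86, 5.30 and 3.98 CPM in WT replicates 1 to 3 and at 11.7, 11.4 and 11.5 CPM in KO replicates 1 to 3. The 3 KO libraries were nearly equal and all above the WT libraries. The log2 fold change was 1.37 ± 0.16 SE (edgeR adjusted p = 1.97e-04), and the exact permutation test (two-sided) reached 0.1, which is the lowest p possible with 3 libraries a group. Without WT replicate 3 and KO replicate 2, it was 1.30 (edgeR adjusted p = 1.29e-04). On the log2(FPKM + 1) scale, which understates changes of low genes, it was 0.96 (limma adjusted p = 6.45e-04).

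Mmp2 is also a gene of fibroblasts and marrow stroma, and markers of those cells moved in the same direction. Of 10 such markers, 9 were tested, and 5 rose (Dcn, Pdgfra, Col1a1, Col1a2 and Cxcl12), 0 fell and 4 were not called. The share called was 55.6%, against 14.6% of all tested genes. Their summed level was 162 to 197 CPM in WT and 346 to 419 CPM in KO, and Thy1 was under 1 CPM in every library. Without WT replicate 3 and KO replicate 2, all 10 markers were tested, 4 rose (Dcn, Pdgfra, Col1a1 and Col1a2) and 0 fell. Cxcl12, near the threshold with all 6 libraries (edgeR adjusted p = 0.0415), was not called there. Per unit of the stromal proteoglycan gene Dcn, Mmp2 was lower in every KO library, at 0.186 ± 0.0175 in WT and 0.141 ± 0.0122 in KO (FPKM ratio, SD, n = 3). Its ratio to Col1a1 overlapped between the groups (0.108 to 0.193 in WT, 0.173 to 0.212 in KO). Such ratios depend on the marker chosen. Dcn (3.43-fold) and Pdgfra (3.75-fold) rose more than Mmp2 (2.59-fold), and the other tested markers had smaller fold changes (1.21 to 2.45). The part of such cells in the Mmp2 value was not tested. In bulk RNA, more cells of a type and more RNA per cell cannot be told apart.

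Mmp9 (chromosome 2, 164940326 to 164955850), the gelatinase stored in neutrophil granules and made by activated macrophages, stood at 108, 77.9 and 135 CPM in WT and 159, 131 and 140 CPM in KO. The groups overlapped, through WT replicate 3, the highest WT library. The log2 fold change was 0.40 ± 0.17 SE (edgeR adjusted p = 0.148). Without WT replicate 3 it was 0.62 and was called (edgeR adjusted p = 0.00886), and without both WT replicate 3 and KO replicate 2 it was 0.65 (edgeR adjusted p = 0.00123). Without WT replicate 2, the lowest WT library, it was 0.23 (edgeR adjusted p = 0.323). The size and the call of Mmp9 thus varied with single WT libraries.

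The collagenases, which cut fibrillar collagen, did not pass the test. Mmp8 (chromosome 9, 7558429 to 7568486), the collagenase of neutrophil granules, had 44.9, 72.1 and 46.7 CPM in WT and 74.0, 57.8 and 57.3 CPM in KO, with a log2 fold change of 0.19 ± 0.17 SE (edgeR adjusted p = 0.535). The groups overlapped, with a high library in each. Of 10 neutrophil and granule markers, 2 rose (S100a8 and S100a9), 2 fell (Mpo and Elane, the peroxidase and elastase of the granules) and 6 were not called. The share called was 40.0%, against 14.6% of all tested genes. Their summed level overlapped between WT (1049.9 to 1406 CPM) and KO (1016 to 1359 CPM). S100a9 was near the threshold (edgeR adjusted p = 0.0455), and its KO and WT ranges overlapped. Without WT replicate 3 and KO replicate 2, 3 of the 10 neutrophil markers rose (S100a8, S100a9 and Cxcr2) and 2 fell (Mpo and Elane). The part of such cells in Mmp8 and Mmp9 was not tested.

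Mmp13 (chromosome 9, 7272514 to 7283333), the main interstitial collagenase of rodents, was the least abundant of the 10. It stood at 3.14, 4.39 and 2.35 CPM in WT and 1.87, 1.99 and 2.05 CPM in KO. Every KO library lay below every WT library, but the spread within WT was wide (31.3% of the mean, against 4.61% in KO). The log2 fold change of -0.76 ± 0.26 SE was not called (edgeR adjusted p = 0.0759). In single fits it was called in DESeq2 (-0.75, adjusted p = 0.0474) and in edgeR without WT replicate 3 (-0.94, adjusted p = 0.0292) or without both libraries that stand apart (-0.98, adjusted p = 0.0226). In the other 14 alternatives run it was not called. Without WT replicate 2, the highest WT library, it was -0.49 (edgeR adjusted p = 0.306), and limma-voom gave -0.71 (adjusted p = 0.116).

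Mmp12 (chromosome 9, 7344397 to 7360461), the macrophage elastase, fell in KO. It stood at 19.9, 28.9 and 20.7 CPM in WT and at 12.2, 12.1 and 16.3 CPM in KO. The highest KO library, replicate 3, remained below the lowest WT library. The log2 fold change was -0.80 ± 0.17 SE (edgeR adjusted p = 0.00794), and -0.82 (edgeR adjusted p = 0.00251) without WT replicate 3 and KO replicate 2. It was called in each of the 6 fits that left out 1 library (adjusted p of up to 0.0432). In the GENCODE annotation 157 of the 7237 exonic bases of Mmp12 overlap Mmp1b on the other strand, which had at most 1 count per library.

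Mmp12, Mmp13 and Mmp8 lie in the same metalloproteinase cluster on chromosome 9, and their promoters are shown beside that of Timp1. Of these genes Mmp12 fell and Timp1 rose, while Mmp13 and Mmp8 were not called, so the windows are a description and not a comparison of changed with unchanged genes. The windows run from 250 bases before to 50 bases after a RefSeq transcript start (GRCm38.p6), 5′ to 3′ on the gene's strand. Capitals mark matches, on either strand, to TGANTCA (the AP-1 motif, which is its own reverse complement), TATAAA (the TATA box) or GGGCGG (the GC box). The positions are chr9:7347124-7347423 for the second of the Mmp12 starts, chr9:7272264-7272563 for Mmp13, chr9:7558179-7558478 for Mmp8 and chrX:20869916-20870215 for Timp1, all on the plus strand.
Mmp12: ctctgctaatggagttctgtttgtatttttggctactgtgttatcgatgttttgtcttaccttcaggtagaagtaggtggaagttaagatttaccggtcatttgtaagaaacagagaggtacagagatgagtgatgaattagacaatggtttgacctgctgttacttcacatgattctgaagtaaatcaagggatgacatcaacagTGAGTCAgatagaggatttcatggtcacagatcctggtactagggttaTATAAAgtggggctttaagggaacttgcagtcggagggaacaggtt
Mmp13: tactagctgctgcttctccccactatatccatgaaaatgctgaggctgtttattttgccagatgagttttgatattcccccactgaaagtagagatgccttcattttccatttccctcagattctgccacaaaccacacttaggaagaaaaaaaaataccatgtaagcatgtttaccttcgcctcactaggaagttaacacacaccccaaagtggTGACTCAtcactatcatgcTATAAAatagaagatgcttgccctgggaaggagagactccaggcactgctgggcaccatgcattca
Mmp8: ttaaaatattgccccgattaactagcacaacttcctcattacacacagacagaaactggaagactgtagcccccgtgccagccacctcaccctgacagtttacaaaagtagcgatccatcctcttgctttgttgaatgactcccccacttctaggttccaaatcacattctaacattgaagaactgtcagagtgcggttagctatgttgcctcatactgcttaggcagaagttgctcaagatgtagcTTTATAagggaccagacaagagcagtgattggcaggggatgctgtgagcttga
Timp1: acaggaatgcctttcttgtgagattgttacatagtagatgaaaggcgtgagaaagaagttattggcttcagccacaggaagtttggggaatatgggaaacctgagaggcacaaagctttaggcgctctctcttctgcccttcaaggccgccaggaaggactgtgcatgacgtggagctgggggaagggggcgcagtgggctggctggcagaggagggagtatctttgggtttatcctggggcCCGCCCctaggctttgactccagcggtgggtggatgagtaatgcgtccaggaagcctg
In the Mmp12 and Mmp13 windows an AP-1 match begins 44 and 35 bases before the start and is followed by a TATA box match, 4 bases after the start in Mmp12 and 16 bases before it in Mmp13. The first Mmp12 start (chr9:7344147-7344446) held none of the motifs. The Mmp8 window held a TATA box match on the opposite strand, 3 bases before the start, and the Timp1 window a GC box match on the opposite strand, 8 bases before the start. Timp2 held 1 GC box match, Timp3 and Mmp14 held 2 each, and none of these held an AP-1 or TATA box match. Windows were found for 7 of the 10 genes, all but Mmp2, Mmp9 and Mmp19. Of 32851 RefSeq windows of 300 bases, 7.81% held an AP-1 match, 13.6% a TATA box match and 35.7% a GC box match. A match describes these letters only and shows no binding. Sites with other letters are not found by these patterns, so a window with no match may still hold a site.

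Mmp14 and Mmp19 did not differ beyond the spread between libraries. Mmp14 (chromosome 14, 54431598 to 54442456), the membrane-anchored activator of pro-Mmp2, stood at 942, 835 and 1105 CPM in WT and 954, 803 and 859.8 CPM in KO, with a log2 fold change of -0.16 ± 0.12 SE (edgeR adjusted p = 0.406). The highest library was WT replicate 3, and without it and KO replicate 2 the log2 fold change was -0.01. Mmp19 (chromosome 10, 128790910 to 128800827), a secreted enzyme that cuts basement membrane proteins, varied by 8.76% of the mean in WT, the least of the 7 metalloproteinases there, and by 8.31% in KO. It had 119.7, 132 and 111 CPM in WT and 122, 126 and 107 CPM in KO (log2 fold change -0.06 ± 0.11 SE, edgeR adjusted p = 0.790). On the other strand Tmem198b overlaps 789 of its 3533 exonic bases. That gene had 10.0 to 14.2 CPM. The labels do not state whether counting used strand, so reads in the overlap may have been added to or left out of the Mmp19 count.

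Timp1, an inhibitor of most secreted metalloproteinases that forms a complex with pro-Mmp9, was the inhibitor that rose in KO. It lies on chromosome X at 20870166 to 20874737, within an intron of Syn1 on the other strand. It stood at 46.1, 59.4 and 37.1 CPM in WT and at 106, 131 and 106 CPM in KO. Each KO library lay above every WT library. The log2 fold change was 1.25 ± 0.16 SE (edgeR adjusted p = 4.44e-04), and 0.97 (edgeR adjusted p = 1.07e-05) without WT replicate 3, the lowest WT library, and KO replicate 2, the highest KO library. Syn1 shares no exonic base with Timp1 and had 5.54 to 11.7 CPM. Fibroblasts also express Timp1, and the part of the stroma markers, 162 to 197 CPM in WT and 346 to 419 CPM in KO, in its value was not tested.

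Timp2 (chromosome 11, 118301061 to 118355411), which can both inhibit metalloproteinases and assist activation of pro-Mmp2, had 212, 259 and 273 CPM in WT and 209, 171 and 233 CPM in KO. The groups overlapped, and the log2 fold change of -0.30 ± 0.13 SE was not called (edgeR adjusted p = 0.149). Timp3 (chromosome 10, 86300412 to 86349505), the matrix-bound inhibitor that also blocks the sheddase Adam17, had 10.9, 10.3 and 11.2 CPM in WT and 18.3, 12.1 and 15.5 CPM in KO. Its groups did not overlap, and KO replicate 2 was closest to WT. The log2 fold change of 0.48 ± 0.15 SE lay just outside the threshold (edgeR adjusted p = 0.0552). It was called in 7 of 18 alternatives. With all 6 libraries these were upper-quartile scaling (edgeR adjusted p = 0.0456), no low-count filter (0.0433), a filter of 1 CPM in 3 libraries (0.0497), the replicate block (0.0227) and DESeq2 (0.0282). The others were the fits without KO replicate 2 (0.61, edgeR adjusted p = 0.0114) and without both libraries that stand apart (0.64, edgeR adjusted p = 0.00417). Without KO replicate 1, the highest KO library, it was 0.35 (edgeR adjusted p = 0.217). Timp3 shares 1733 of 8144 exonic bases with Syn3 on the other strand, which had at most 1 count per library.

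Summed over the 7 metalloproteinases, transcript levels were 337, 319 and 385 FPKM in WT and 366, 313 and 326 FPKM in KO, and the groups overlapped. Mmp14 alone held 72.7 ± 3.40% of that sum in WT and 68.5 ± 0.981% in KO (SD, n = 3). The 3 inhibitors summed to 113, 141 and 119.7 FPKM in WT and to 182, 197 and 188 FPKM in KO, with every KO library higher. Timp1 held 42.9 ± 6.89% of the inhibitor sum in WT and 68.3 ± 5.76% in KO. The ratio of the metalloproteinase sum to the inhibitor sum was 2.99, 2.26 and 3.21 in WT and 2.01, 1.59 and 1.74 in KO. Without Mmp14 it was 0.760 ± 0.0484 in WT and 0.559 ± 0.0623 in KO, again with no overlap. The higher inhibitor sum of KO, and with it the lower ratio, lay in Timp1 (53.7 FPKM in WT, 129 FPKM in KO). Timp2 was lower by mean in KO (68.4 and 56.4 FPKM), and Timp3 was a small part (2.31 and 3.27 FPKM). These sums are descriptions with no test, since the 10 genes were chosen with earlier results of these data known.

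Single pairs differed in the same or the opposite direction. The ratio of Mmp8 to Timp1 was lower in every KO library (0.415 ± 0.0550 in WT, 0.202 ± 0.0462 in KO, FPKM ratio), while that of Mmp9 to Timp1 overlapped (0.304 to 0.841 in WT, 0.233 to 0.347 in KO). The ratio of Mmp2 to Timp2 was higher in every KO library (0.0201 ± 0.00335 in WT, 0.0648 ± 0.00998 in KO). That of Mmp14 to Timp2 overlapped (3.72 ± 0.596 in WT, 4.11 ± 0.522 in KO). Timp1 stood below Timp2 in all 3 WT libraries (ratios 0.890, 0.937 and 0.556) and above it in all 3 KO libraries (2.08, 3.13 and 1.86).

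**Figure D3:**
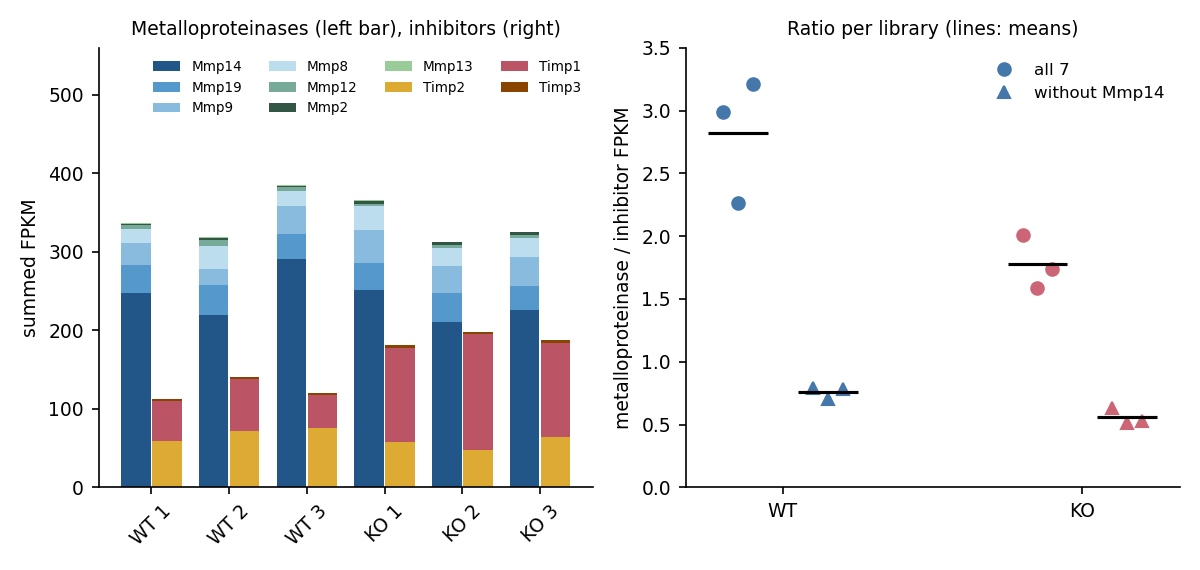
Left, summed FPKM of the 7 metalloproteinases and of the 3 inhibitors in each library, stacked by gene. Right, the ratio of the sums per library (lines for means) with and without Mmp14, in which the KO ratios (1.59 to 2.01 with Mmp14) lie below the WT ratios (2.26 to 3.21).

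Of 18 other metalloproteinases and inhibitors, 15 were in the table, 10 were tested, 1 rose and 0 fell. The background of genes called higher is 8.44%, as above. The gene that rose was Mmp23, a membrane-tethered member that lacks the usual haemopexin domain, from 1.47, 1.34 and 1.59 CPM in WT to 4.74, 4.46 and 4.93 CPM in KO (log2 fold change 1.66 ± 0.21 SE, edgeR adjusted p = 3.13e-04). Mmp27 (4.67 CPM in WT, 4.15 CPM in KO) and Mmp25 (2.68 and 1.85 CPM) were not called, at log2 fold changes of -0.19 and -0.57 (edgeR adjusted p = 0.715 and 0.255). The stromelysins Mmp10 (0.99, edgeR adjusted p = 0.141), Mmp3 (-0.11) and Mmp11 (-0.52), the membrane types Mmp16 (1.27) and Mmp24 (0.67), Mmp28 (0.85) and the membrane inhibitor Reck (0.05) had at most 1.12 CPM as a group mean and were not called. Without both libraries that stand apart 2 of 10 were called higher, Mmp23 and Mmp16, and 0 lower. The remaining inhibitor, Timp4, had at most 1 count in any library and was not tested.

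Of 17 ADAM and ADAMTS genes, related metalloproteinases that shed surface proteins or cut proteoglycans and procollagen, 14 were tested, 2 rose and 0 fell. The share called, 14.3%, was near the 14.6% of all tested genes. The procollagen N-proteinase Adamts2 had 3.95, 3.71 and 4.84 CPM in WT and 15.3, 11.2 and 13.3 CPM in KO (log2 fold change 1.64 ± 0.17 SE, edgeR adjusted p = 8e-05). Adam12 rose from 0.452 to 1.33 CPM (1.53, edgeR adjusted p = 0.0415), a call lost on leaving out any 1 WT library, KO replicate 1 or KO replicate 3 (edgeR adjusted p of 0.0618 to 0.161). Without both libraries that stand apart Adam12 was not called either (1.31, edgeR adjusted p = 0.0596), and 4 of 13 tested genes were called higher, Adamts2 among them, and 1 lower.

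Plasmin cleaves several proenzymes of metalloproteinases, and the genes that control its formation were a further list. Of 11, 8 were tested, 3 rose and 0 fell, and the counts were equal without the libraries that stand apart. With all libraries the share called was 37.5%, against 14.6% of all tested genes. Serpinb2, a serpin of macrophages that inhibits urokinase, had 19.1, 28.7 and 19.5 CPM in WT and 72.9, 66.9 and 67.4 CPM in KO (log2 fold change 1.60 ± 0.15 SE, edgeR adjusted p = 4.16e-05). The urokinase receptor Plaur rose as well (0.78, edgeR adjusted p = 0.00366), whereas urokinase itself, Plau, had a log2 fold change of 0.00 (28.9 CPM in WT, 29.3 CPM in KO, edgeR adjusted p = 0.998). Serpinb2 shares 11.1% of its 32-base words with transcripts of other genes.

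Of 12 proenzyme convertases and metalloproteinase partners, 10 were tested, and the share called was 10.0%, against 14.6% of all tested genes. The 1 gene called rose. This was Lcn2, a siderophore-binding lipocalin whose human form binds MMP9, at 883, 885 and 683 CPM in WT and 1888, 2217 and 1376 CPM in KO (log2 fold change 1.14 ± 0.17 SE, edgeR adjusted p = 0.00104). The convertase Furin, which can activate pro-Mmp14, was not called (-0.07, edgeR adjusted p = 0.864). Without both libraries that stand apart, 4 of 10 genes were called higher, Lcn2 and Furin among them, and 1 lower. Furin thus changed sign between the fits. With all 6 libraries its groups overlapped (152 to 241 CPM in WT, 122 to 212 CPM in KO).

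Of 15 AP-1, Ets, Runx and NF-kB genes, transcription factors known to act on metalloproteinase promoters, 14 were tested, 4 rose and 1 fell. The share called was 35.7%, against 14.6% of all tested genes. Fosl1, an AP-1 subunit, had 3.23, 3.71 and 3.81 CPM in WT and 16.2, 14.6 and 15.7 CPM in KO (log2 fold change 2.09 ± 0.14 SE, edgeR adjusted p = 4.35e-06), but shares 54.4% of its 32-base words with transcripts annotated to other genes. The Ets family members Etv4 (1.66), Ets1 (0.97) and Ets2 (0.47) rose, the last with a call lost without WT replicate 1 or KO replicate 1 (edgeR adjusted p = 0.0837 and 0.0702). The AP-1 subunit Fos fell, from 34.4 to 22.9 CPM (-0.61, edgeR adjusted p = 0.0499), at the threshold, and its call was lost when WT replicate 2, WT replicate 3, KO replicate 1 or KO replicate 3 was left out (edgeR adjusted p of 0.0914 to 0.169). It was lost in 11 of 18 alternatives in all, among them other scalings (0.053 to 0.0596), the 1 CPM filter (0.0611) and the 3 limma-trend fits (0.0747 to 0.0866). Without both libraries that stand apart 6 of 14 were called higher and 1 lower. Fos was named after its values were seen, as were Plau and Furin above.

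Of 16 matrix genes that encode substrates of these enzymes, 15 were tested, 11 rose and 0 fell, with a median log2 fold change of 0.91. The share called was 73.3%, against 14.6% of all tested genes. The collagen gene Col5a2 (1.82), the laminin chain Lamb1 (1.87), the matrix glycoprotein Sparc (0.86) and Col1a2 (1.16) had the smallest adjusted p. Without both libraries that stand apart, 12 rose and 0 fell. Col1a1, Col1a2 and Col3a1 are also in the list of stroma markers, so the lists are not independent. The part of stromal cells in these values was not tested.

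**Figure D4:**
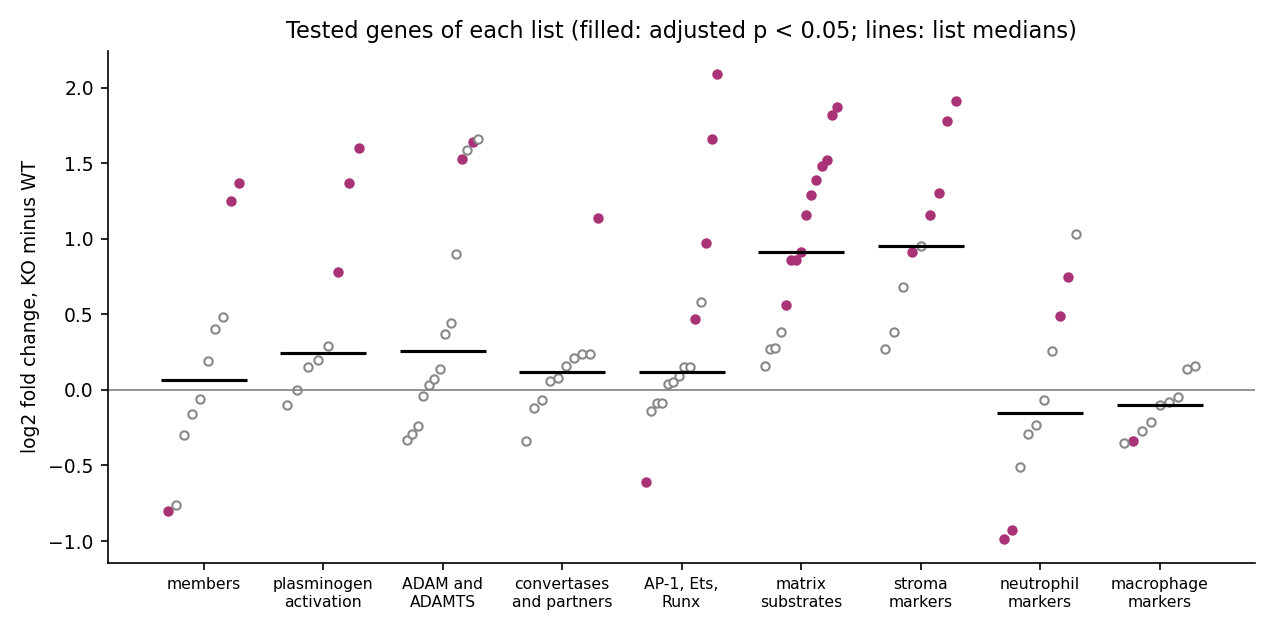
Log2 fold changes (KO minus WT) of the tested genes of each list, with filled points for edgeR adjusted p under 0.05 and lines for list medians. The 10 genes spread on both sides of 0 around a median of 0.06, while matrix substrates (0.91) and stroma markers (0.95) lie wholly above 0.

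**Figure D5:**
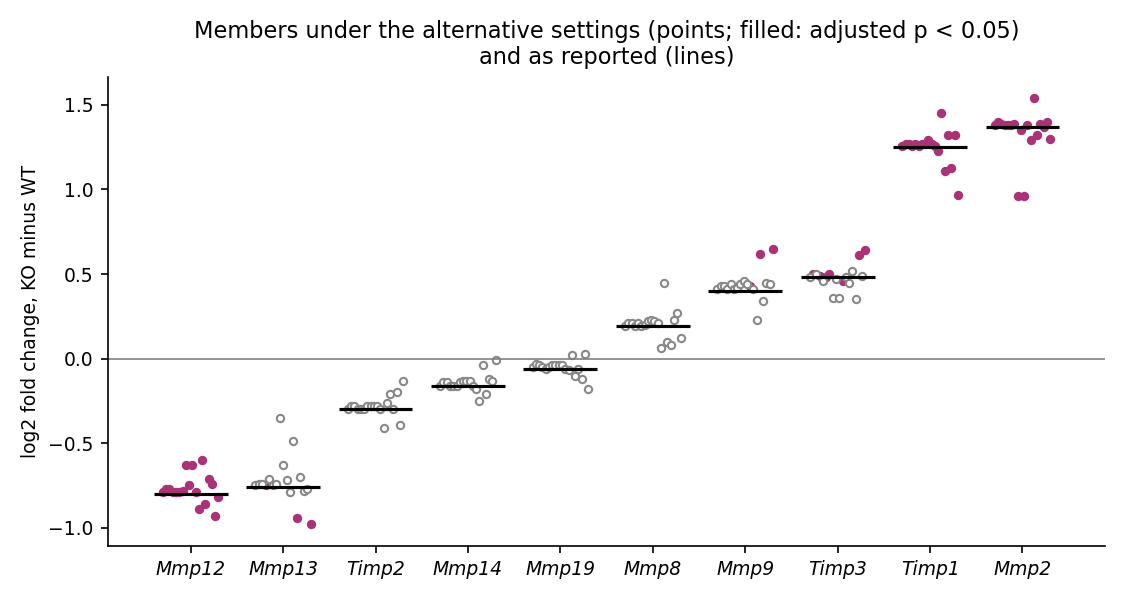
Log2 fold change (KO minus WT) of each of the 10 genes as reported (lines) and under each alternative setting (points, filled for adjusted p under 0.05). Mmp12, Timp1 and Mmp2 are filled throughout, Mmp13, Mmp9 and Timp3 under some settings, and Timp2, Mmp14, Mmp19 and Mmp8 under none of those run.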

How the data were processed

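RNA of 6 libraries was sequenced from strand-specific libraries, per the labels' protocols. The authors deposited raw read counts per gene and FPKM values. Per the submitters' processing notes the tools were HISAT2, HTSeq and fastp and the build mm10, with no versions, and the use of strand in counting is not stated there. The deposited FPKM equalled the count divided by 1 length per gene and the column total, for 99.99% of values with 10 or more counts (tolerance 1%). Totals ranged from 32631163 to 40913819 counts.

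Sample titles gave the groups and the numbering of replicates. The test on counts was the quasi-likelihood F test of edgeR 4.0.16 (R 4.3.3) after filterByExpr and TMM, with Benjamini-Hochberg adjustment over 12219 genes and a threshold of 0.05. The SE was the log2 fold change divided by the square root of F. The procedure was run on simulated counts drawn independently for each library. These held no structure like that of the libraries that stand apart, so they do not test calls under it. Alternatives were other scalings and filters, DESeq2 1.42.0, limma 3.58.1 (voom, and limma-trend on log2(FPKM + 1) and log2(FPKM + 0.1)), a replicate block, and leaving out libraries. Counts of the other lists with WT replicate 3 and KO replicate 2 both left out were chosen after seeing the data. Positions, promoters (RefSeq, GRCm38.p6) and exon overlaps (GENCODE M21, GRCm38) matched the named build. Shared sequence was the share of 32-base words of a gene's transcripts found in transcripts of other genes.

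The 10 genes and the lists were chosen with earlier results of these data known. Named were the 10 genes, Capns1, up to 4 called genes of smallest adjusted p per list, and tested genes of the list of other metalloproteinases. Of these, 1 called gene of the plasminogen list is counted but not reported here. Markers of osteoclasts, dendritic cells, mast cells, endothelium and lymphocytes were also summed. Osteoclast markers gave 537 to 632 CPM in WT and 607 to 738 CPM in KO, with 4 of 7 under 1 CPM throughout. Dendritic cell markers gave at most 5.37 CPM, mast cell and basophil markers 3.80 CPM, lymphocyte markers 0.276 CPM and endothelial markers 51.4 CPM.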

Additional observations from a re-analysis of the deposited data

How the results depend on the processing

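The calls of Mmp2, Timp1 and Mmp12 kept their direction and side of the threshold under all 18 alternatives run for each. Their log2 fold changes ranged from 0.96 to 1.54, from 0.97 to 1.45 and from -0.93 to -0.60. Over the 10 genes, 164 of 179 gene and setting pairs kept both, 13 passed the threshold where the reported value did not (Mmp13, Mmp9 and Timp3), and 2 changed sign. The latter were Mmp19, never called, at 0.02 without WT replicate 2 and 0.03 without KO replicate 3 (range with 1 library left out -0.12 to 0.03). Mmp13 had no value where FPKM of at least 1 in 3 libraries was required. Genes called over the whole table numbered 1790 as reported, 1119 to 1741 with 1 library left out (1138 without WT replicate 1, 1119 without KO replicate 1, 1149 without KO replicate 3) and 3186 without both WT replicate 3 and KO replicate 2. The cause was not tested. Of the 10 genes, those called higher numbered 2 as reported, 2 to 3 with 1 library left out, 4 without both libraries and 4 with a replicate block. Of the 10 genes, those called lower numbered 1 as reported, 1 to 2 with 1 library left out, 2 in DESeq2 and 2 without both libraries. The labels do not state whether replicate numbers pair the libraries, and correlations among so few libraries cannot settle it. Deviations from group means correlated at -0.0975, 0.23 and 0.18 for numbers 1 to 3. WT replicate 1 correlated best with KO replicate 2 (0.16), and WT replicate 3 with KO replicate 1 (0.258). With the replicate block 2526 genes were called, and Mmp9 (0.43, edgeR adjusted p = 0.0223) and Timp3 (0.46, edgeR adjusted p = 0.0227) passed. Counts limit precision most for Mmp13, with 66 to 174 reads per library.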
